A study of Mus musculus with 22 samples.

Results

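The BCL2 family decides at the outer mitochondrial membrane whether a stressed cell lives or dies, and 10 of its genes are described here in sorted mouse microglia. They were chosen by symbol from the 54532 genes of the count table: the pro-survival genes Bcl2, Bcl2l1, Mcl1, Bcl2a1b and Bcl2a1d, the pore-forming effectors Bax and Bak1, and the BH3-only genes Bcl2l11, Bid and Pmaip1. All 10 were found, and all 10 passed the filter on low counts. After lipopolysaccharide (LPS), Mcl1 rose 2.00-fold in mice exposed to Gulf War chemicals and 1.63-fold in control mice. Bcl2l11 fell to 0.42 of its PBS level in control mice. In exposed mice given cannabidiol and then LPS, Mcl1 was at 0.57 of its level in exposed mice given LPS without cannabidiol, a call that was kept in 10 of 14 alternatives and lost without the highest library of the mice not given cannabidiol (log2 fold change -0.50, edgeR adjusted p = 0.247, 5.27e-05 to 0.247 over the alternatives).

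In healthy cells the pro-survival proteins (BCL2, BCL-XL from Bcl2l1, MCL1 and A1 from the Bcl2a1 genes) hold BAX and BAK in check. BH3-only proteins such as BIM (from Bcl2l11), BID and NOXA (from Pmaip1) are made or activated under stress and neutralise the pro-survival proteins or activate BAX and BAK, which then perforate the mitochondrion, release cytochrome c and start the caspase cascade. MCL1 is a short-lived protein whose level follows its synthesis closely, A1 is an NF-kB target of leukocytes, and BIM limits the lifespan of myeloid and lymphoid cells deprived of growth factors.

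Microglia (the macrophages that reside in brain tissue) were sorted by flow cytometry (live cells, CD45mid, CD11b+, CD11a-) from male C57BL/6J mice aged 17.5 months, and polyadenylated RNA was sequenced from 22 libraries. At 10 weeks of age the mice had been injected for 10 days with the Gulf War (GW) chemicals, which are the acetylcholinesterase inhibitor pyridostigmine bromide at 0.7 mg/kg and the insecticide permethrin at 200 mg/kg, or with vehicle (Ctrl). Part of the GW mice later received the plant cannabinoid cannabidiol (CBD), at a dose of 30 mg/kg each day for 28 days and then every 2 days over 2 weeks, and the other mice received its vehicle. All mice were injected with LPS (0.33 mg/kg), a bacterial membrane component sensed by Toll-like receptor 4, or with PBS, 24 hours before the brain was taken. The groups were GW mice with CBD and LPS (GW-CBD-LPS, n = 4), GW mice with CBD and PBS (GW-CBD-PBS, n = 3), GW mice with CBD vehicle and LPS (GW-LPS, n = 3), GW mice with CBD vehicle and PBS (GW-PBS, n = 4), and control mice with CBD vehicle and LPS (Ctrl-LPS, n = 4) or PBS (Ctrl-PBS, n = 4). CBD was given to exposed mice in all the libraries used here, so its effect was compared among exposed mice. Whether a library holds the cells of 1 mouse is not in the labels, so the spread behind each p-value is that between libraries and may be technical. In bulk RNA, fewer cells of a type and less RNA per cell cannot be told apart.

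The libraries held 28676930 to 40458326 counts each, and 16554 genes entered the tests. Levels are given in CPM, read counts scaled to the size of the library. The 8 microglia markers were above 0 in all libraries, and their sums were lower after LPS in the groups without CBD: 28917.3 to 33897.9 CPM in GW-LPS, against 36276.7 to 42412.7 CPM in GW-PBS, and 21659 to 31796.1 CPM in Ctrl-LPS, against 36191.6 to 47485.6 CPM in Ctrl-PBS. With CBD they were 35622.8 to 43890.4 CPM in GW-CBD-LPS, against 43000.8 to 45730.3 CPM in GW-CBD-PBS. P2ry12 fell by 2.12 ± 0.20 on the log2 scale with LPS in control mice and rose by 1.15 ± 0.21 with CBD after LPS. The list as a whole moved less. Its median was -0.56 with LPS in control mice, where 5 of the 8 were called lower. With CBD after LPS the median was 0.43, and 2 of the 8 were called higher. The 5 B cell markers, of which Ighm held most of the counts, summed to 199 to 718 CPM in GW-LPS, against 896.6 to 1030 CPM in GW-PBS, and to 294 to 562 CPM in Ctrl-LPS, against 1016 to 1117 CPM in Ctrl-PBS. With CBD the B cell sums were 916.6 to 1061 CPM in GW-CBD-LPS, against 975.3 to 1106 CPM in GW-CBD-PBS. The 6 border macrophage markers summed to 358 to 573 CPM in GW-LPS, against 169 to 273 CPM in GW-PBS, and the 5 erythroid markers to 65.8 to 137 CPM in GW-LPS, against 259 to 1568 CPM in GW-PBS. Of these lists 3 border macrophage genes rose and all 5 erythroid genes fell with LPS in GW mice. The 5 endothelial markers were low, at 17.7 to 28.3 CPM in GW-LPS, against 29.7 to 50.8 CPM in GW-PBS, and at 14.2 to 25.01 CPM in Ctrl-LPS, against 33.5 to 45.8 CPM in Ctrl-PBS. The 5 astrocyte markers summed to 19.4 to 29.3 CPM in GW-CBD-LPS, against 12.6 to 16.7 CPM in GW-CBD-PBS. These lists moved with LPS in the groups named, and of them the microglia and B cell sums also moved with CBD after LPS. Their part in the results was not tested. The 12 neutrophil markers stood out in 3 libraries: Ctrl-PBS replicate 3 (26808.6 CPM), Ctrl-LPS replicate 1 (2695.04 CPM) and GW-PBS replicate 1 (1668.6 CPM), with 1.502 to 334.5 CPM in the remaining 19. Their highest sums were 12.3 CPM in GW-CBD-LPS, 155 CPM in GW-CBD-PBS and 231 CPM in GW-LPS. Elane and Mpo were at 0 in 11 libraries each and Ly6g in 9. The 6 monocyte markers were highest in the same 3 libraries (1906.8, 524.6 and 140.9 CPM, against 9.10 to 54.2 CPM elsewhere). Where a named gene's call was lost without these 3 libraries, this is given beside it.

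The promoters of the members that the results turn on are shown first, as 250 bases before and 50 bases after the start in RefSeq (GRCm38.p6), 5′ to 3′ on the gene's strand. Capitals mark matches to 4 short motifs on either strand: TGANTCA (AP-1, which reads the same on both strands), GTAAACA (FOXO), GAGGAAGT (PU.1) and GGGCGG (GC box).
Mcl1 (chr3:95658471-95658770, plus strand): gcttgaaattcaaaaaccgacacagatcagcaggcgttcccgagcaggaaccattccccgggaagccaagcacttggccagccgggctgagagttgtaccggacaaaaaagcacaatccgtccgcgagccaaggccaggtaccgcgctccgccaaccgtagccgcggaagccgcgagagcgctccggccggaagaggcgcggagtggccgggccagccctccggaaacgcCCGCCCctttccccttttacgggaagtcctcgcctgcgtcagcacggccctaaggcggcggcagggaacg
Bcl2l11 (chr2:128125788-128126087, plus strand): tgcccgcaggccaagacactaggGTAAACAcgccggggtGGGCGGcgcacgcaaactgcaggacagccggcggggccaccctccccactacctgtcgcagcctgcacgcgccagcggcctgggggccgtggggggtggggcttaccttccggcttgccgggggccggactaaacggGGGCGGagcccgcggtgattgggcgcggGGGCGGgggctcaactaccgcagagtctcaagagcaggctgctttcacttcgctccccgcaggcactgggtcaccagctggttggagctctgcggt
Bcl2a1b (chr9:89199023-89199322, plus strand): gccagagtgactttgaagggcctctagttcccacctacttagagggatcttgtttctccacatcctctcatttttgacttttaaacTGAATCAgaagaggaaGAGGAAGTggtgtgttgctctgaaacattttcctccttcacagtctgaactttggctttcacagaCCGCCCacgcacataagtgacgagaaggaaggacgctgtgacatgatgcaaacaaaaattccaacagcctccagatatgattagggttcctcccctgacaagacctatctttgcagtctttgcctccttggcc
Bcl2a1d (chr9:88731801-88732100, minus strand): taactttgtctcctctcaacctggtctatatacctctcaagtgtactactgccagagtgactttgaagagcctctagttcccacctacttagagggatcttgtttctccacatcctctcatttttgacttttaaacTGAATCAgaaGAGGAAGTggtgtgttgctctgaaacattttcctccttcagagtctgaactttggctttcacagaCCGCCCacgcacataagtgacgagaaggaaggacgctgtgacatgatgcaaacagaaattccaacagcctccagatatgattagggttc

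The Bcl2l11 window held the FOXO letters, present in 3.65% of the 32851 promoters of the table, and 3 GC boxes. The promoters of 9 members were searched, all but that of Pmaip1, and of these Bcl2l11 alone had a FOXO match. The match was in the window shown and not in the alternative promoter of Bcl2l11. A member was counted if any of its promoters matched, while the percentages are of single promoters. The Mcl1 window held 1 GC box and no other motif searched. GC boxes were present in 7 of the 9 members and in 35.7% of all promoters. The Bcl2a1b and Bcl2a1d windows each held an AP-1, a PU.1 and a GC box match. The AP-1 letters were found in 7.81% of all promoters and in 2 of the 9, and the PU.1 letters in 3.2% of all promoters and in 3 of the 9, with Bak1 beside both Bcl2a1 genes. The windows of Bcl2a1b and Bcl2a1d were 98.8% identical over 250 aligned bases, so their matches lie in copies of 1 stretch and are not separate finds. The STAT letters TTCNNNGAA were found in none of the 9 and in 8.3% of all promoters. A match to the NF-kB motif was found among the 9 in Bcl2l1 alone, in one of its alternative promoters, and in 8.46% of all promoters. These matches describe the letters in the windows and are not evidence of binding.

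Set per kilobase of exon (GENCODE M21), the family spanned a wide range of levels that kept nearly the same order in all groups. Mcl1 had the highest mean in every group, at 82.4 ± 12.9 CPM per kb in GW-CBD-LPS, 86.3 ± 3.39 in GW-CBD-PBS, 144 ± 48.3 in GW-LPS, 72.3 ± 11.8 in GW-PBS, 130 ± 15.9 in Ctrl-LPS and 79.9 ± 11.8 in Ctrl-PBS (SD). In GW-PBS the range of Mcl1 overlapped that of Bcl2a1b, which was second in every group. Bax, Bid, Bcl2l1 and Bcl2a1d followed, with ranges that mostly overlapped between neighbours in the order. A step then separated them from Bcl2l11, Pmaip1 and Bcl2, and Bak1 had the lowest mean in every group. In Ctrl-PBS, Bcl2a1d at 20.6 ± 2.21 CPM per kb was the lowest of the abundant members and Bcl2l11 at 4.00 ± 0.61 CPM per kb the highest of the scarce ones. Bak1 was near the limit of what could be compared, with 5 to 84 counts in a library. The plot of the levels by library shows each member in all groups.

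**Figure D1:**
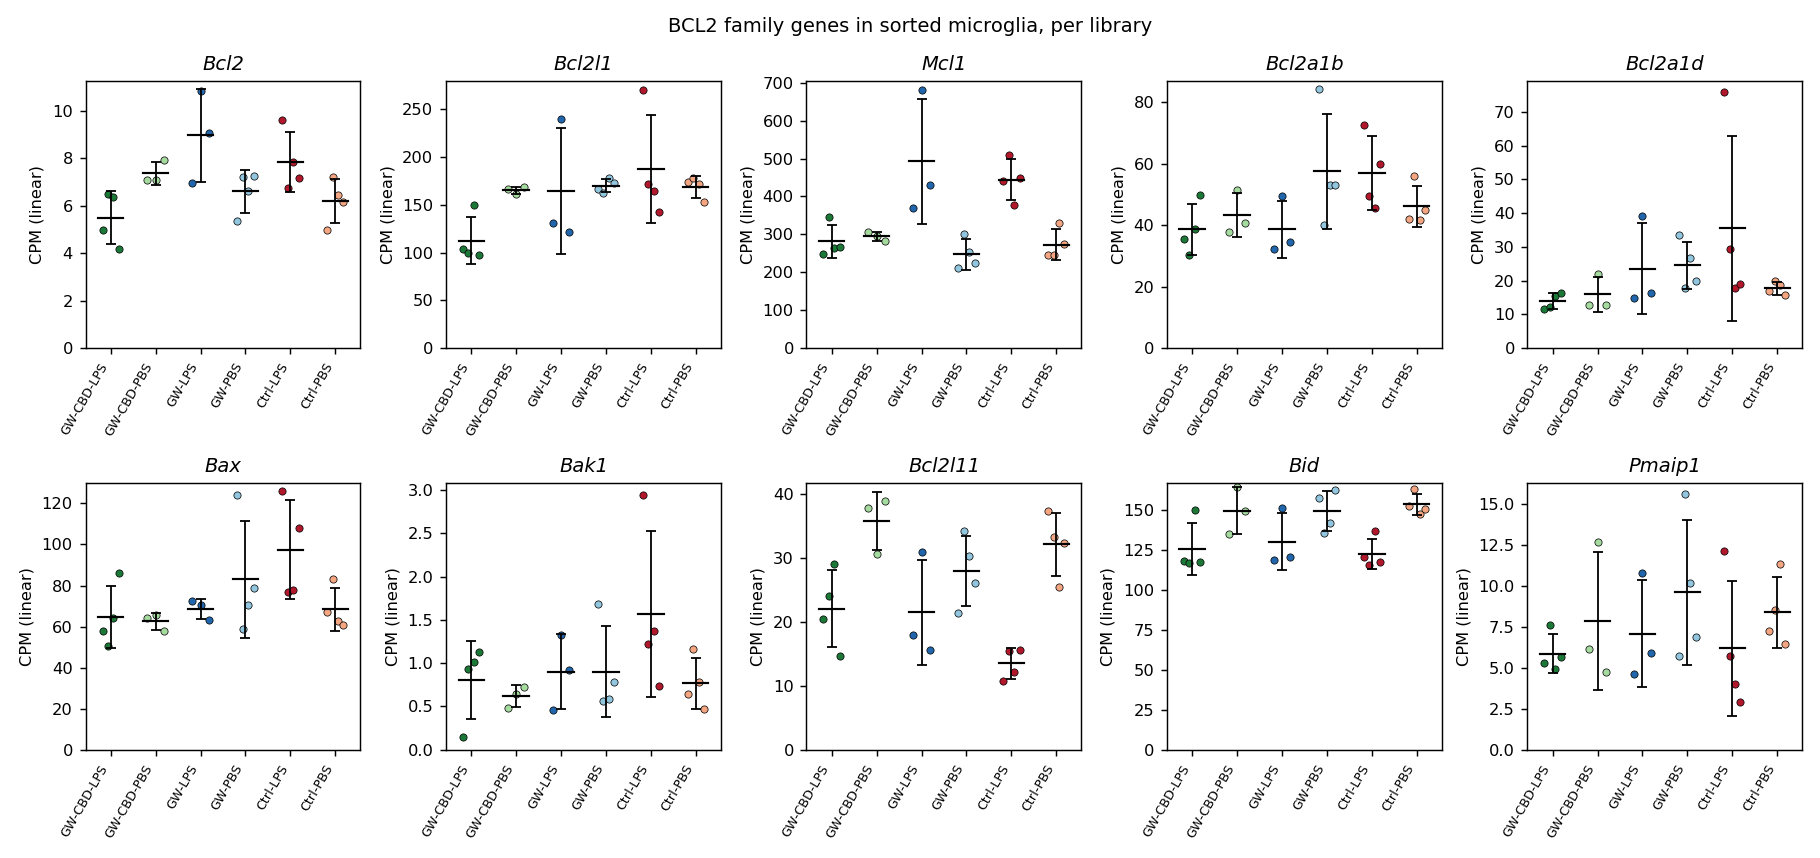
CPM of each member in every library (points, linear axis from 0), by group, with the group mean (bar) and SD (whiskers). Mcl1 was at 370 to 681 CPM in GW-LPS and 377 to 510 CPM in Ctrl-LPS, above every PBS library, and Bcl2l11 at 10.7 to 15.6 CPM in Ctrl-LPS, below every PBS library.

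Tested for any difference among the 6 groups, Mcl1 (edgeR adjusted p = 0.000618) and Bcl2l11 (adjusted p = 0.00185) passed, which was 2 of 10 members against 20.1% of all genes. Without GW-LPS replicate 3 there were 5, with Bcl2l1, Bcl2a1d and Bid added. There were 4 without Ctrl-LPS replicate 3 (Bcl2a1d and Bid added) and 4 without GW-CBD-LPS replicate 3 (Bcl2l1 and Bid added). The 20.1% of all genes belongs to the fit of all libraries. The shares of all genes that passed with these libraries left out are not given here, so these counts describe the members only.

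The first comparison asked how LPS moved the family in control mice. Of the 10 members 1 rose and 2 fell, against 20.4% of all genes called in either direction (10.8% higher and 9.62% lower). The median log2 fold change was 0.32 over the members and -0.02 over all genes. Library ranges of the groups did not overlap for the 3 called members and for 23% of all genes.

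Mcl1 (ENSMUSG00000038612, GRCm38 chromosome 3, 95658788 to 95663176, plus strand) was at 441.6, 510.3, 377.3 and 449.2 CPM in Ctrl-LPS, against 244.5, 244.3, 330.1 and 273.1 CPM in Ctrl-PBS. Every LPS library lay above every PBS library. The highest PBS value was in replicate 3, the library with the highest neutrophil marker sum. The log2 fold change was 0.70 ± 0.17 (SE, edgeR adjusted p = 0.00512), and it was 0.79 (adjusted p = 0.00683) without the 3 libraries with raised neutrophil markers. Over all alternatives the adjusted p ran from 0.000385 to 0.0206.

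Bcl2l11, the gene of BIM (ENSMUSG00000027381, chromosome 2, 128126038 to 128162547, plus strand), was at 10.7, 15.4, 12.2 and 15.6 CPM in Ctrl-LPS, against 37.3, 33.3, 25.4 and 32.3 CPM in Ctrl-PBS. The ranges were well apart, with the highest LPS library below the lowest PBS library. Bcl2l11 fell by 1.25 ± 0.22 on the log2 scale (edgeR adjusted p = 0.000461). The fold change stayed between -1.38 and -1.16 in all alternatives, and it was -1.27 without the 3 libraries.

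Bid (ENSMUSG00000004446, chromosome 6, 120891930 to 120916853, minus strand), whose protein is cut by caspase-8 and carries the death receptor signal to mitochondria, was at 120.2, 115.7, 136.5 and 117.5 CPM in Ctrl-LPS, against 152.5, 162.9, 147.1 and 150.5 CPM in Ctrl-PBS. The ranges did not overlap, and the difference was small, at -0.32 ± 0.11 on the log2 scale (edgeR adjusted p = 0.0425). The call was lost without Ctrl-LPS replicate 1, 2 or 4 or Ctrl-PBS replicate 1, 2 or 4, where the adjusted p reached 0.098, without a filter on low counts (0.0635) and without the 3 libraries (0.0881). The adjusted p ran from 0.00866 to 0.098 over all alternatives.

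The other BH3-only member, Pmaip1 (ENSMUSG00000024521), the gene of NOXA, which binds MCL1, was at 12.1, 5.72, 4.02 and 2.92 CPM in Ctrl-LPS, against 7.22, 8.52, 11.4 and 6.46 CPM in Ctrl-PBS. Its highest and its lowest value both came from LPS libraries, so the groups overlapped (log2 fold change -0.44 ± 0.41, edgeR adjusted p = 0.482).

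The effectors Bax and Bak1 did not pass. Bax (ENSMUSG00000003873, chromosome 7) was at 126, 77.0, 77.9 and 108 CPM in Ctrl-LPS, against 67.0, 83.3, 62.6 and 60.6 CPM in Ctrl-PBS, a log2 fold change of 0.51 ± 0.21 (edgeR adjusted p = 0.0863). Ctrl-PBS replicate 2 lay within the LPS range. Bak1 (ENSMUSG00000057789, chromosome 17) was at 0.738 to 2.95 CPM in Ctrl-LPS and 0.475 to 1.17 CPM in Ctrl-PBS (1.03 ± 0.55, adjusted p = 0.195).

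Among the pro-survival genes other than Mcl1, 1 library set much of the difference. Bcl2a1d (ENSMUSG00000099974, chromosome 9, 88723285 to 88731914, minus strand) was at 75.8, 29.4, 17.9 and 18.9 CPM in Ctrl-LPS, against 16.8, 19.9, 18.7 and 15.6 CPM in Ctrl-PBS. Replicate 1 of Ctrl-LPS was far above the rest, and replicates 3 and 4 lay within the PBS range. The log2 fold change of 1.00 ± 0.38 (edgeR adjusted p = 0.0672) was 0.31 without Ctrl-LPS replicate 1. Bcl2l1 (ENSMUSG00000007659, chromosome 2) was at 270.6 CPM in the same library and at 143 to 172 CPM in the other Ctrl-LPS libraries, against 153 to 179 CPM in Ctrl-PBS (0.15 ± 0.20, adjusted p = 0.64). Ctrl-LPS replicate 1 was the highest of its group for 7 of the 10 members and had the second highest neutrophil marker sum, whose part in these values was not tested. Bcl2a1b was at 72.5, 49.4, 45.7 and 59.97 CPM in Ctrl-LPS, against 41.9, 55.9, 41.6 and 44.9 CPM in Ctrl-PBS (0.30 ± 0.21, adjusted p = 0.335). Bcl2 (ENSMUSG00000057329, chromosome 1) was at 6.75 to 9.61 CPM in Ctrl-LPS and 5.00 to 7.22 CPM in Ctrl-PBS (0.34 ± 0.19, adjusted p = 0.212).

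In GW mice, LPS raised Mcl1 and no other member passed, so 1 of 10 was called against 9.53% of all genes (4.45% higher and 5.07% lower). The median log2 fold change was -0.13 over the members and -0.04 over all genes. Mcl1 was at 370.3, 680.8 and 428.9 CPM in GW-LPS (replicates 2, 3 and 4), against 210.2, 300.9, 253.3 and 223.6 CPM in GW-PBS. The ranges were apart, as for 19.6% of all genes, and GW-LPS replicate 3 stood well above the other libraries of its group. Mcl1 rose by 1.00 ± 0.18 on the log2 scale (edgeR adjusted p = 0.00156), and by 0.69 (adjusted p = 0.0172) without GW-LPS replicate 3. The adjusted p ran from 9.3e-06 to 0.0366 over the alternatives.

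Bcl2l11 was at 18.0, 30.8 and 15.6 CPM in GW-LPS, against 21.4, 34.1, 30.3 and 26.0 CPM in GW-PBS. Replicate 3 of GW-LPS lay inside the PBS range, and the other LPS libraries below it (-0.38 ± 0.24, edgeR adjusted p = 0.35). limma voom with quality weights, which gives less weight to libraries that stand apart, called it at -0.77, together with Bcl2l1, Bcl2a1b and Bid. This tool called 3809 of all genes in the comparison, against 1577 in edgeR. GW-LPS replicate 3 was the highest of its group for 9 of the 10 members, all but Bax. Bcl2l1 was at 131, 240 and 121 CPM in GW-LPS, against 167, 163, 178 and 173 CPM in GW-PBS, so replicate 3 lay above and the other replicates below every PBS library.

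Bcl2a1b had a negative difference in GW mice, at 32.4, 49.3 and 34.4 CPM in GW-LPS, against 84.1, 39.9, 53.0 and 53.0 CPM in GW-PBS (-0.57 ± 0.23, edgeR adjusted p = 0.129). The groups overlapped through GW-LPS replicate 3 and GW-PBS replicate 2. GW-PBS replicate 1, which had the third highest neutrophil marker sum, was the highest of its group for 4 members, among them Bcl2a1b (84.1 CPM), Bcl2a1d (33.4 CPM) and Bax (124 CPM). Without it, the Bcl2a1b difference was -0.35 (edgeR adjusted p = 0.383), Bcl2a1d was at 0.10 and Bax at -0.04. The remaining members, Bcl2 (0.44 ± 0.20), Bcl2a1d (-0.06 ± 0.41), Bax (-0.28 ± 0.22), Bak1 (-0.00 ± 0.59), Bid (-0.20 ± 0.12) and Pmaip1 (-0.44 ± 0.44), had overlapping ranges and did not pass.

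In CBD-treated GW mice no member passed for LPS, where 0.417% of all genes were called (0.393% higher and 0.0242% lower). At an unadjusted p under 0.05 there were 4 members (Bcl2, Bcl2l1, Bcl2l11 and Bid), all with lower levels after LPS, and 1821 of all genes. DESeq2 called 0 members and limma voom with quality weights 5. The numbers of all genes called by these tools in this comparison are not given here. Mcl1 was at 247.5, 346.4, 265.0 and 267.6 CPM in GW-CBD-LPS, against 306.6, 295.1 and 283.4 CPM in GW-CBD-PBS. The LPS libraries lay on both sides of the PBS libraries (-0.07 ± 0.18, edgeR adjusted p = 0.941), and the 95% interval ran from -0.44 to 0.31.

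Bcl2l11 was at 20.4, 24.0, 29.0 and 14.6 CPM in GW-CBD-LPS, against 37.8, 30.6 and 38.8 CPM in GW-CBD-PBS. All LPS libraries were below all PBS libraries, and the log2 fold change of -0.70 ± 0.24 did not pass over all genes (edgeR adjusted p = 0.242, 0.00014 to 0.638 over the alternatives). Bcl2l1 was at 103, 100, 150 and 97.7 CPM in GW-CBD-LPS, against 166, 161 and 168 CPM in GW-CBD-PBS (-0.55 ± 0.21, adjusted p = 0.321). Bcl2 was at 4.96, 6.47, 6.36 and 4.18 CPM in GW-CBD-LPS, against 7.07, 7.09 and 7.93 CPM in GW-CBD-PBS (-0.42 ± 0.20, adjusted p = 0.451). The ranges were apart for Bcl2l11, Bcl2l1 and Bcl2, and for 14.2% of all genes. The plot of log2 fold changes sets the LPS comparisons side by side.

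**Figure D2:**
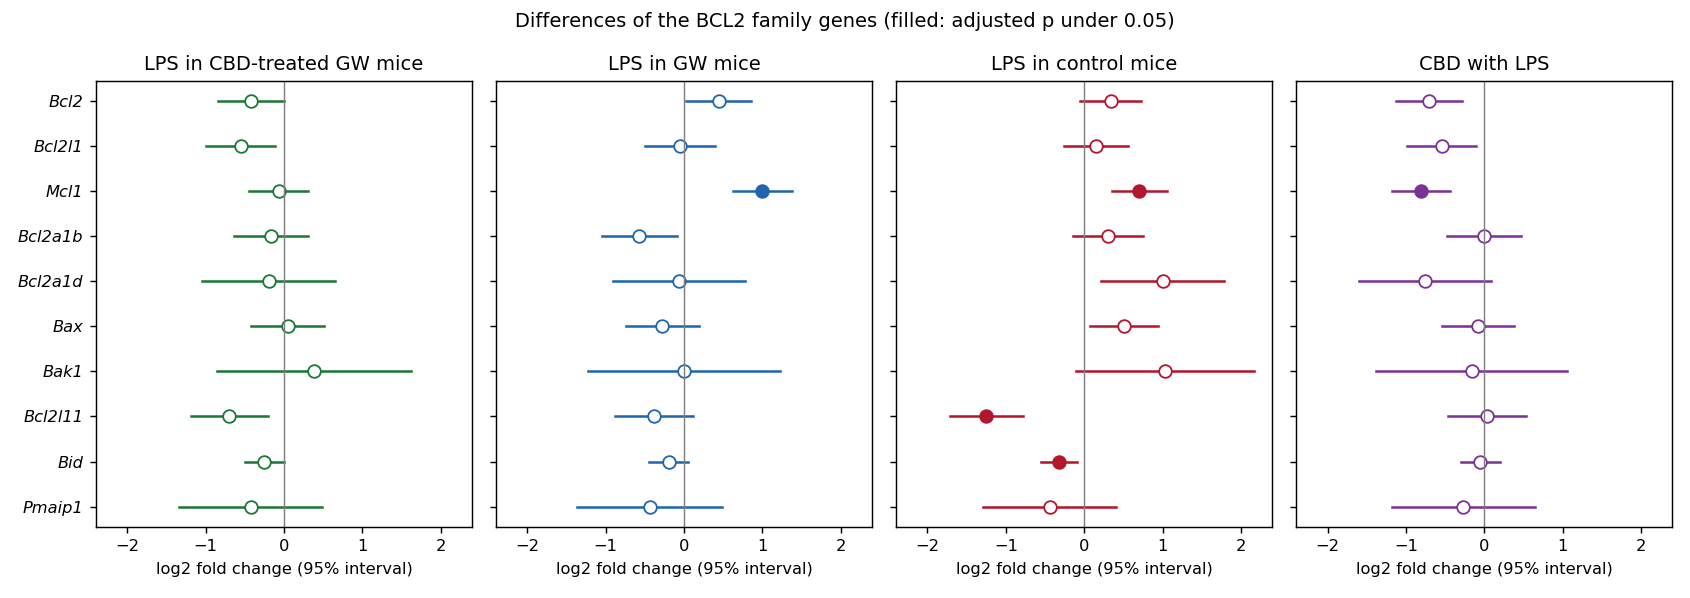
Log2 fold change of each member with its 95% interval for LPS against PBS in CBD-treated GW mice, GW mice and control mice, and for CBD against no CBD in GW mice given LPS. Filled points passed an adjusted p under 0.05 (Mcl1 in 3 panels, Bcl2l11 and Bid in control mice), and the interval of Mcl1 for LPS in CBD-treated GW mice spans 0.

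The LPS responses of GW mice and control mice were compared with each other through an interaction term. No member and no gene passed in edgeR. At an unadjusted p under 0.05 there were 3 members and 2099 genes, DESeq2 called 0 members and limma voom with quality weights 1, Bcl2a1b. The 3 members were Bcl2l11 (0.87 ± 0.32), Bcl2a1b (-0.87 ± 0.31) and Bax (-0.79 ± 0.30), each with an edgeR adjusted p of 0.353 or 0.354. The Mcl1 interaction was 0.29 ± 0.25 (adjusted p = 0.603), with a 95% interval of -0.22 to 0.81. Bcl2l11 thus passed in control mice and not in GW mice, and the difference between these responses did not pass.

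Exposure itself was compared in PBS and in LPS libraries. With PBS, GW-PBS against Ctrl-PBS, 0 members and 0% of all genes passed in edgeR, 0 members and 621 genes had an unadjusted p under 0.05, and DESeq2 and limma voom with quality weights called 0 members. All 10 members overlapped, where 2.07% of all genes had ranges apart, and the log2 fold changes lay between -0.20 for Bcl2l11 and 0.47 for Bcl2a1d. With LPS, GW-LPS against Ctrl-LPS, 0 members and 0% of all genes passed in edgeR, with 3 members and 2267 genes at an unadjusted p under 0.05. DESeq2 called 0 members, and limma voom with quality weights called Bcl2a1b. Bcl2l11 was higher in all 3 GW-LPS libraries (15.625 to 30.8 CPM) than in all 4 Ctrl-LPS libraries (10.7 to 15.562 CPM), with a gap of under 0.1 CPM between the nearest libraries, at 0.67 ± 0.24 (edgeR adjusted p = 0.317). Bax was lower in GW-LPS (63.0 to 72.2 CPM) than in Ctrl-LPS (77.0 to 126 CPM), at -0.51 ± 0.22 (adjusted p = 0.351). These were the only members with ranges apart, where 12.5% of all genes had them.

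With CBD in GW mice given LPS, Mcl1 fell and no other member passed in edgeR, 1 of 10 against 2.31% of all genes (1.06% higher and 1.24% lower). The comparison shares the GW-LPS libraries with the LPS comparison in GW mice. Mcl1 was at 247.5, 346.4, 265.0 and 267.6 CPM in GW-CBD-LPS, against 370.3, 680.8 and 428.9 CPM in GW-LPS, and every CBD library lay below every library without CBD. Mcl1 fell by 0.81 ± 0.18 on the log2 scale (edgeR adjusted p = 0.0185). The call was lost without GW-LPS replicate 3 (-0.50, adjusted p = 0.247), GW-CBD-LPS replicate 1 (adjusted p = 0.0733) or GW-CBD-LPS replicate 3 (adjusted p = 0.0599), and when these groups were fitted alone (adjusted p = 0.116). Over all alternatives the adjusted p ran from 5.27e-05 to 0.247.

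Bcl2, the founding member, which blocks BAX and BH3-only proteins, was the other member with ranges apart, where 12.8% of all genes had them. It was at 4.96, 6.47, 6.36 and 4.18 CPM in GW-CBD-LPS, against 6.95, 10.9 and 9.09 CPM in GW-LPS, a log2 fold change of -0.70 ± 0.20 (edgeR adjusted p = 0.0683). DESeq2 and limma voom with quality weights called it, as did edgeR without GW-LPS replicate 2 or without the 3 neutrophil-marker libraries (adjusted p from 0.000555 to 0.384 over the alternatives). For Bcl2l11 the difference was 0.04 ± 0.24, with a 95% interval of -0.46 to 0.53, and for Bcl2a1b it was -0.00 ± 0.23. Bcl2l1 (-0.55 ± 0.21, adjusted p = 0.212) and Bcl2a1d (-0.76 ± 0.40, adjusted p = 0.416) had overlapping ranges.

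Without LPS, GW-CBD-PBS against GW-PBS, 0 members and 0% of all genes passed in edgeR, with 0 members and 1569 genes at an unadjusted p under 0.05, and DESeq2 and limma voom with quality weights called 0 members. All 10 members overlapped, where 8.19% of all genes had ranges apart. Mcl1 was at 306.6, 295.1 and 283.4 CPM in GW-CBD-PBS, against 210.2, 300.9, 253.3 and 223.6 CPM in GW-PBS (0.26 ± 0.18, edgeR adjusted p = 0.609). The interaction of CBD and LPS for Mcl1 was -1.07 ± 0.25 (adjusted p = 0.081, 0.00121 to 0.264 over the alternatives). Of all genes 0.0181% passed this interaction (0.0121% higher and 0.00604% lower), 0 members did in edgeR and 2 had an unadjusted p under 0.05, while DESeq2 called 1 member, Mcl1, and limma voom with quality weights 2, Mcl1 and Bcl2. Mcl1 passed in edgeR without GW-LPS replicate 2 (adjusted p = 0.0227) or GW-CBD-LPS replicate 2 (adjusted p = 0.0273).

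Mcl1 and Bcl2l11 encode a guardian and one of its main opponents, and their ratio within a library does not depend on its scaling. It is used to compare libraries and not the levels of both genes. There were 9.13 to 18.3 Mcl1 counts per Bcl2l11 count in GW-CBD-LPS (mean 13.5 ± 3.86, SD), against 7.30 to 9.65 in GW-CBD-PBS (8.36 ± 1.196). In GW-LPS there were 20.6 to 27.4 (23.4 ± 3.61), against 8.36 to 9.81 in GW-PBS (8.90 ± 0.64). In Ctrl-LPS there were 28.9 to 41.3 (33.5 ± 5.43), against 6.55 to 12.97 in Ctrl-PBS (8.83 ± 2.87). The ratio in the PBS groups thus overlapped in all arms, and the LPS libraries of GW mice and control mice did not overlap each other or any PBS library. Both genes are the members that passed the test for any difference, so the ratio describes the same counts again and adds no further evidence. Between GW-LPS and Ctrl-LPS neither gene passed (edgeR adjusted p = 0.701 for Mcl1 and 0.317 for Bcl2l11). How often other pairs of genes separate these groups was not tested. GW-CBD-LPS overlapped GW-CBD-PBS through replicate 3, at 9.13. In GW-LPS replicate 3, where both genes were high, the ratio was 22.1, within the range of its group. The highest PBS value was again in Ctrl-PBS replicate 3.

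**Figure D3:**
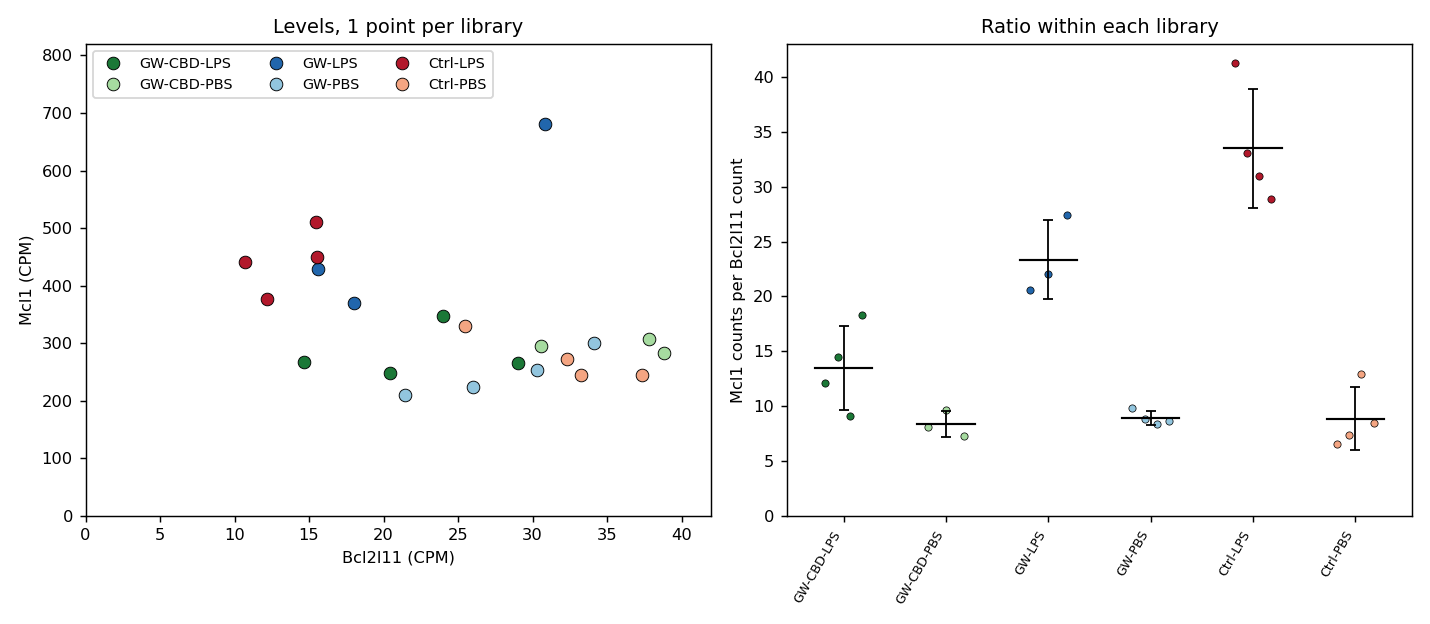
Left, Mcl1 against Bcl2l11 in CPM (linear axes from 0), 1 point per library. Right, Mcl1 counts per Bcl2l11 count in each library with group mean and SD, from 20.6 to 27.4 in GW-LPS and 28.9 to 41.3 in Ctrl-LPS, above the 6.55 to 12.97 of all PBS libraries.

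The Bcl2a1 genes are nearly identical copies on chromosome 9, so their single counts are uncertain. Bcl2a1b (ENSMUSG00000089929, 89199209 to 89207827, plus strand) and Bcl2a1d are members, and Bcl2a1a (ENSMUSG00000102037, 88956900 to 88962419, plus strand) is another copy with counts. Their transcripts were 98.2% identical for Bcl2a1a and Bcl2a1b, 98.8% for Bcl2a1a and Bcl2a1d and 99.1% for Bcl2a1b and Bcl2a1d. Of all windows of 150 bases, 28.2% in Bcl2a1a, 14.2% in Bcl2a1b and 30.3% in Bcl2a1d also occur in another copy, and how such reads were counted is not given in the sources used here. Bcl2a1c was listed with 0 counts in all 22 libraries, which allows up to 0.105 CPM in the smallest library (3 counts, counting error only).

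The copies summed to 89.6 ± 15.9 CPM in GW-CBD-LPS and 100.1 ± 17.9 CPM in GW-CBD-PBS, 119 ± 41.5 CPM in GW-LPS and 141 ± 45.7 CPM in GW-PBS, and 198 ± 87.5 CPM in Ctrl-LPS and 110.3 ± 13.02 CPM in Ctrl-PBS (SD). The share of each copy in this sum was steadier than the sum. Bcl2a1a made up 40.5% to 43.4% in GW-CBD-LPS and 39.2% to 42.2% in GW-CBD-PBS, which overlapped. It made up 46.0% to 50.3% in GW-LPS, against 40.6% to 42.9% in GW-PBS, and 50.4% to 55.8% in Ctrl-LPS, against 40.9% to 43.8% in Ctrl-PBS. The share of Bcl2a1a was thus higher in all LPS libraries of control and GW mice than in all their PBS libraries. The share of Bcl2a1b was lower, with 29.8% to 36.9% in GW-LPS, against 39.2% to 43.2% in GW-PBS, and 22.3% to 35.6% in Ctrl-LPS, against 39.7% to 43.9% in Ctrl-PBS. Bcl2a1d had overlapping shares. The shares of the copies make up a whole, so the lower share of Bcl2a1b is not a separate observation and does not by itself mean a lower level. These shares are descriptions of counts that cannot be split with certainty between the copies.

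**Figure D4:**
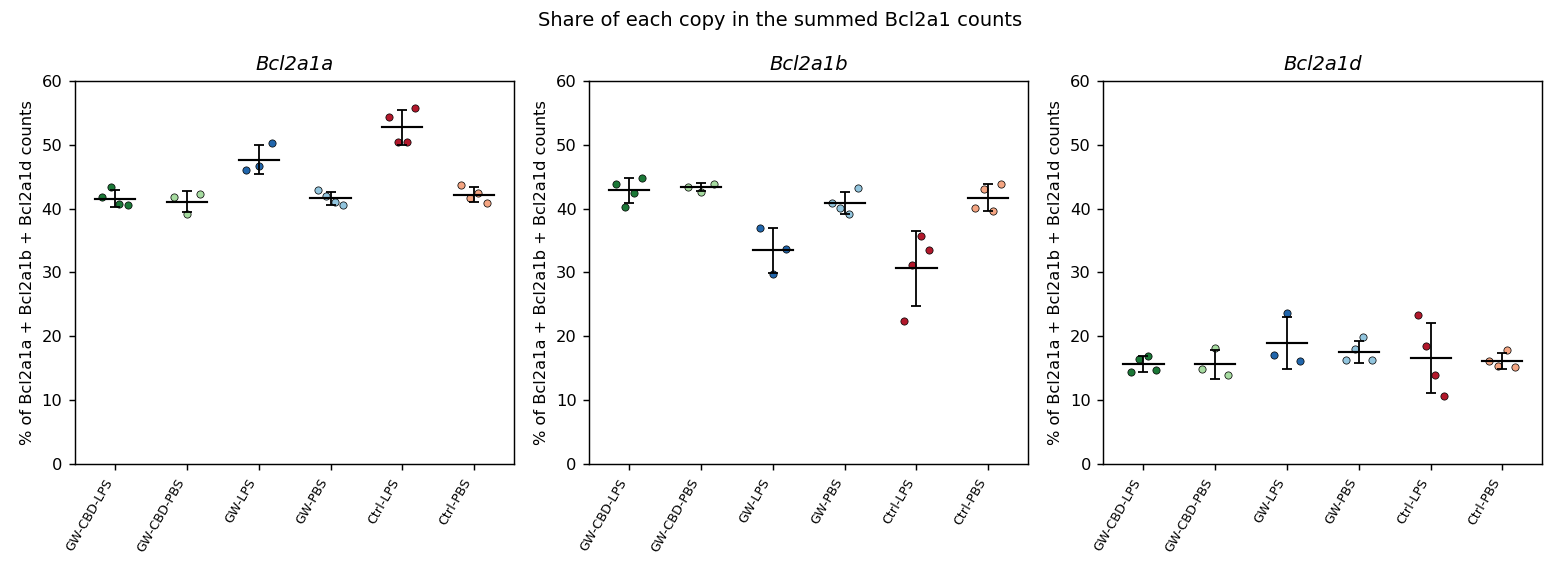
Share of Bcl2a1a, Bcl2a1b and Bcl2a1d in their summed counts, in percent, per library (points) with group mean and SD. Bcl2a1a is at 46.0% to 50.3% in GW-LPS and 50.4% to 55.8% in Ctrl-LPS, above all other libraries, and at 40.5% to 43.4% in GW-CBD-LPS.

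As a gene, Bcl2a1a was at 177, 80.1, 64.7 and 99.7 CPM in Ctrl-LPS, against 45.7, 54.0, 44.5 and 41.9 CPM in Ctrl-PBS. Every LPS library was above every PBS library, and Bcl2a1a rose by 1.18 ± 0.27 on the log2 scale (edgeR adjusted p = 0.00355), and by 0.77 (adjusted p = 0.0198) without the 3 libraries with raised neutrophil markers. In GW mice the difference was -0.06 ± 0.29 (adjusted p = 0.924), and the interaction of -1.24 ± 0.39 did not pass (adjusted p = 0.353).

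The rest of the pathway is given from lists of other BCL2 family genes (12 of 16 tested), the apoptosome with caspases and their inhibitors (20 of 20), death receptor signalling (14 of 15) and regulators of BCL2 family genes and proteins (24 of 24). With LPS in control mice, 3 other BCL2 family genes rose and 1 fell, with a list median of 0.13 on the log2 scale. Of all genes 20.4% were called in this comparison (10.8% higher and 9.62% lower), the share to set beside each of the lists. Bbc3, which encodes the BH3-only protein PUMA, was at 11.1, 12.7, 11.1 and 14.3 CPM in Ctrl-LPS, against 22.6, 21.3, 24.2 and 19.9 CPM in Ctrl-PBS, and fell by 0.84 ± 0.18 (edgeR adjusted p = 0.00254). Its ranges were apart, as were those of Bcl2l11. Bmf, another BH3-only gene, rose by 0.79 ± 0.26 (adjusted p = 0.0391), a call lost without Ctrl-LPS replicate 1, 2 or 4 or any 1 of the 4 Ctrl-PBS libraries, and without the 3 neutrophil-marker libraries (0.75, adjusted p = 0.12). Bcl2l12 also rose (0.57 ± 0.17, adjusted p = 0.0188), a call lost without Ctrl-LPS replicate 1 or 4 or Ctrl-PBS replicate 3 or 4, and without the 3 neutrophil-marker libraries (0.40, adjusted p = 0.166).

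Of the apoptosome and caspase genes 6 rose with LPS in control mice (list median 0.07). Cytochrome c (Cycs, 0.86 ± 0.22) and Naip2 (0.63 ± 0.15) rose in every alternative. Aifm1 (0.46) and Endog (0.85), whose products leave the mitochondria of dying cells, and Dffa (0.44), which inhibits a caspase-activated nuclease, also rose. Their calls were lost without Ctrl-PBS replicate 3, without other single libraries (Ctrl-LPS replicate 1 for Aifm1, Ctrl-LPS replicate 3 for Dffa, and Ctrl-LPS replicate 1 or 4 and Ctrl-PBS replicate 1 for Endog) and when the 3 neutrophil-marker libraries were left out together. The last setting left 2 rises in the list. Of the death receptor genes (list median 0.34) the adaptor Tradd (0.57 ± 0.12) and the necroptosis kinase Ripk3 (0.92 ± 0.22, or 0.61 without Ctrl-LPS replicate 1) rose and none fell in edgeR.

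Of the regulators 3 rose and 1 fell in control mice (list median 0.05). Stat3, a transcription factor of interleukin signalling, rose by 1.14 ± 0.22 (edgeR adjusted p = 0.000943), at 374 to 432 CPM in Ctrl-LPS, against 137 to 198 CPM in Ctrl-PBS. Nfkb1 fell by 0.76 ± 0.11 (adjusted p = 4.31e-05). Bag1, which binds BCL2 (0.80 ± 0.20, lost without the 3 libraries), and Zfp36, which destabilises AU-rich transcripts (0.58 ± 0.19, lost without Ctrl-LPS replicate 1, 2 or 4 or Ctrl-PBS replicate 1 or 4), also rose.

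In GW mice given LPS, where 9.53% of all genes were called, 0 other BCL2 family genes rose and 2 fell in edgeR. Bbc3 fell by 0.80 ± 0.20 (adjusted p = 0.0153, lost without GW-LPS replicate 2 or 4), and the mitophagy gene Bnip3 fell by 0.80 ± 0.17 (adjusted p = 0.00603). Naip2 rose (0.61 ± 0.17), and Casp6 (-0.62 ± 0.19) and the caspase inhibitor gene Xiap (-0.86 ± 0.24) fell. These calls and that of Trp53 (-0.45 ± 0.14) were lost without GW-PBS replicate 1 or 4 or GW-LPS replicate 4, those of Naip2, Xiap and Trp53 also without GW-LPS replicate 3 and that of Casp6 also without GW-LPS replicate 2. Without the 3 neutrophil-marker libraries, which leaves GW-PBS replicate 1 out of this comparison, the adjusted p was 0.0861 for Naip2, 0.141 for Casp6, 0.107 for Xiap, 0.153 for Trp53 and 0.107 for Akt1. Casp8, which cuts BID, fell by 0.43 ± 0.11 (lost without GW-LPS replicate 3 or 4). Stat3 rose by 1.32 ± 0.23 (adjusted p = 0.0014) and Nfkb1 fell by 0.67 ± 0.12 (adjusted p = 0.00129), both in every alternative. Akt1 (0.59 ± 0.18, lost without any 1 of 6 libraries) rose and the stress factor gene Ddit3 (-0.61 ± 0.16, lost without GW-LPS replicate 2) fell.

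**Figure D5:**
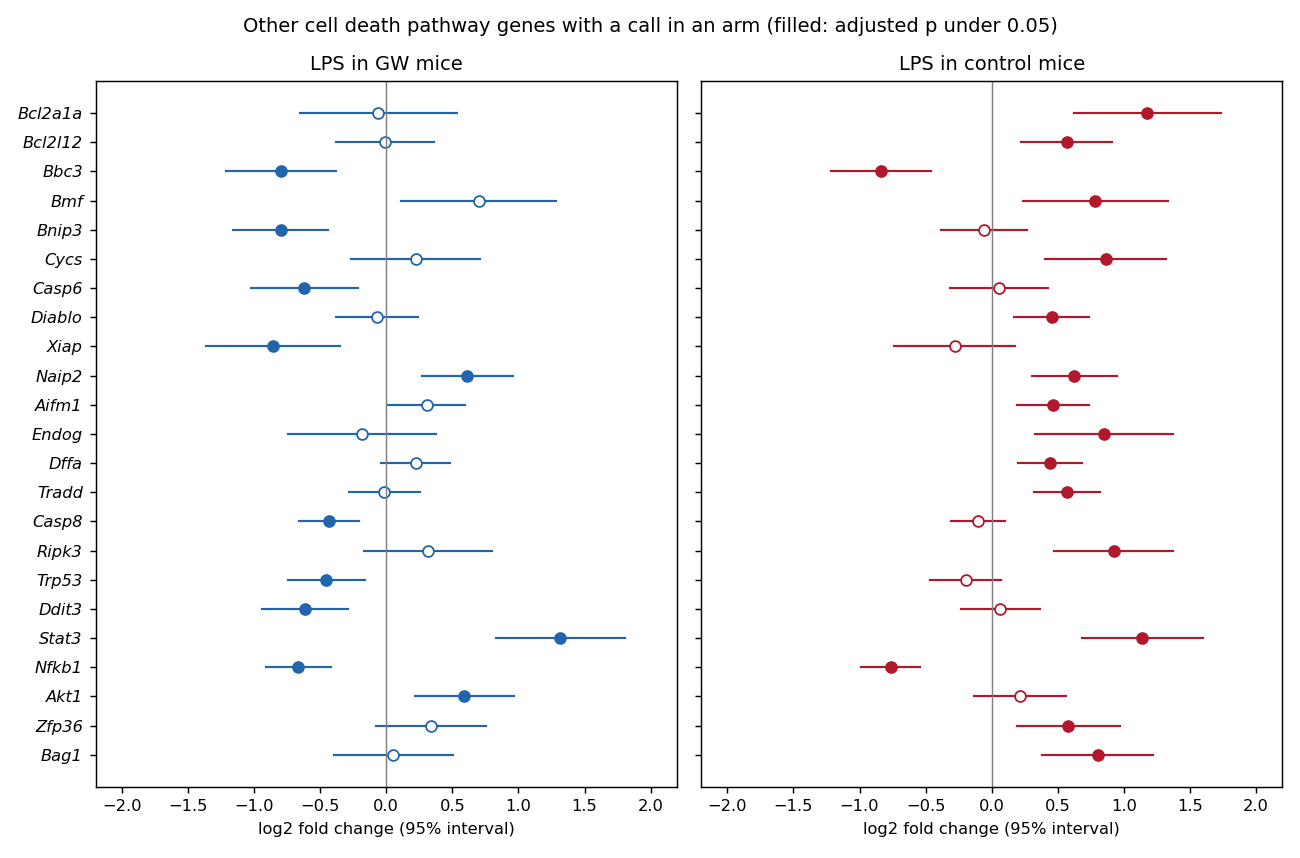
Log2 fold change with 95% interval for LPS against PBS in GW mice (left) and control mice (right), for 23 genes of the pathway lists with a call in at least 1 arm. Filled points passed an adjusted p under 0.05. Stat3, Naip2, Nfkb1 and Bbc3 are filled in both panels.

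In CBD-treated GW mice given LPS, 0 genes of the 4 lists and 0.417% of all genes passed in edgeR. With CBD after LPS, Bmf fell by 1.06 ± 0.28 (adjusted p = 0.0486). Bmf was at 26.1 to 33.7 CPM in GW-CBD-LPS, against 34.0, 113 and 42.5 CPM in GW-LPS, and its log2 fold change was -0.34 without GW-LPS replicate 3. The call of Bmf was also lost without any 1 of the 4 GW-CBD-LPS libraries. Stat3 did not pass (-0.84 ± 0.23, adjusted p = 0.0612).

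Among 9249 genes averaging 5 CPM or more over the 22 libraries, those whose log2 CPM was most like that of Mcl1 were Spryd3 (Pearson r = 0.946), Ubp1 (r = 0.943) and Kdm7a (r = 0.942). Genes with symbols of Gm and digits, ending in Rik or holding -ps were left out of this search. For Bcl2l11 the most similar genes were Prkch (r = 0.945), Impact (r = 0.927) and Rin2 (r = 0.927). For Bax they were Malsu1 and Ppt2 (r = 0.964 each) and Exosc5 (r = 0.955), and for Bcl2a1b Emc7 (r = 0.94), C1d (r = 0.936) and Tmem199 (r = 0.926). The closest to Bcl2a1d were Slc15a3 (r = 0.893), its near copy Bcl2a1a and Eif2b1 (r = 0.886 each). The highest correlations were lower for Bcl2l1 (Trub2, r = 0.875), Bid (Mid1ip1, r = 0.875), Bcl2 (Mat2a, r = 0.833), Bak1 (Fbxl15, r = 0.814) and Pmaip1 (Stk38l, r = 0.746). The points share the 6 groups and their libraries, so these values are descriptions.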

How the data were processed

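The deposited table holds read counts per gene (whole numbers, not normalized) for 54532 genes in 22 libraries, per the labels. The submitters' processing notes name the build GRCm38 (mm10), and the RNA was made into strand-specific poly(A) libraries read from both ends, per the labels' protocols. The aligner, counter, strand setting and annotation are unstated (not given in the sources used here). A single quasi-likelihood fit of all libraries with 6 group means was made with edgeR 4.0.16 in R 4.3.3, after filterByExpr and TMM scaling. A two-sided Benjamini-Hochberg adjusted p under 0.05 over 16554 genes was a call. CPM use TMM factors, and marker sums use library totals. The common biological coefficient of variation was 0.352. Libraries of a group differed by a chi-square per degree of freedom of 11.7 to 234, so none was the same library read again. This check cannot tell separate preparations of 1 sample from separate samples. Groups and numbers came from the labels. Members and lists were chosen with earlier results of these data known. All members were named, and of the other lists up to 6 called genes per list by smallest p, and the results of some listed genes are not reported here. Alternatives were RLE factors, no filter, DESeq2 1.42.0, voom with quality weights (limma 3.58.1), fits of only the groups compared, a replicate block, each library left out, and the 3 neutrophil-marker libraries left out together. The tests were tried on simulated counts. Promoters came from RefSeq (GRCm38.p6), positions from GENCODE M21. Figures were drawn with matplotlib 3.10.9.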

Additional observations from a re-analysis of the deposited data

Results flagged for a closer look

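GW-CBD-LPS replicate 3 stood apart from the rest of its group for 2 members. Bcl2l1 was at 149.571 CPM there, against 97.7 to 103 CPM in the other 3 libraries. Bid was at 149.995 CPM, against 116 to 118 CPM. The gap to the nearest library was 0.892 and 0.959 of the group's range, above Dixon's 95% critical value for 4 libraries. Of 40 groups of 4 libraries tested, these were the only 2, and chance alone flags about 1 in 20.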

How the results depend on the processing

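The calls of Mcl1 and Bcl2l11 for LPS in control mice and of Mcl1 for LPS in GW mice held in all alternatives. Same-numbered libraries had correlated deviations over 0.1 in 4 of 23 pairs (r from -0.285 to 0.145), so the numbers were not taken to pair them. The replicate block changed no member's call: it left 3 called members for LPS in control mice (Mcl1 0.71, Bcl2l11 -1.27 and Bid -0.33), 1 for LPS in GW mice and 1 for CBD with LPS. Counts of called members moved with the tool. limma voom with quality weights called 5 for LPS in GW mice and 5 for LPS in CBD-treated GW mice, 1 for GW chemicals with LPS, 3 for CBD with LPS, 1 for the interaction of GW chemicals with LPS and 2 for the CBD interaction. For LPS in GW mice this tool called 3809 of all genes, against 1577 in edgeR. DESeq2 called 2 for CBD with LPS and 1 for the CBD interaction. For CBD with LPS it called 900 of all genes, against 382 in edgeR. Called members for CBD with LPS were 0 in a fit of the compared groups alone and 2 when the 3 neutrophil-marker libraries were left out. With 1 library left out, the counts ran from 2 to 4 for LPS in control mice, 1 to 2 for LPS in GW mice, 0 to 2 for CBD with LPS, 0 to 1 for the CBD interaction and 2 to 5 for any difference among the groups. The numbers over all genes behind the remaining counts are not given here, so these counts describe the members only. Bak1 with LPS in CBD-treated GW mice had a log2 fold change of -1.46 in limma voom with quality weights (adjusted p = 0.0432) and 0.38 in edgeR, and the cause was not tested. Over all single-member values, 1392 kept their side of the threshold, 25 gained a call, 12 lost it and 1, that of Bak1, changed direction with a call. The 1392 include values without a call whose direction changed, such as Bcl2l1 for LPS in control mice (-0.09 to 0.26 over the alternatives). Bak1 was limited by depth (5 to 84 counts) and the nearly identical Bcl2a1 copies by shared reads, and groups of 3 or 4 libraries leave wide intervals.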
